A study of Mus musculus with 4 samples.

Results

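The genes described here are 9 genes of cholesterol and lipid handling: the sterol exporters Abca1 and Abcg1, the lipoprotein gene Apoe, the lipase gene Lpl, the nuclear receptor genes Nr1h3, Nr1h2, Rxra and Pparg, and the transcription factor gene Srebf2. They were chosen by name, out of 21887 protein-coding genes, and every called peak that overlapped one of them or lay within 1000 bp was taken. That gave 63 of 96551 peaks: for H3K4me3 18 in the Sun knockout and 26 in the wild type, and for H3K9me3 8 in the Sun knockout and 11 in the wild type. Chromatin immunoprecipitation with sequencing (ChIP-seq) had been carried out on peritoneal macrophages, drawn into the abdomen of C57BL/6 mice with thioglycollate broth and then cultured, with antibodies to H3K4me3, a mark of active promoters, and H3K9me3, a mark of silenced chromatin. The 4 libraries came from mice of 8 weeks: 1 per mark of genotype Sun-/-, here called Sun knockout, and 1 per mark of wild type. Which of the Sun genes was deleted, and how many mice went into a library, is not given in the labels. In such bulk chromatin, fewer cells with a mark and less of it per cell cannot be told apart.

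In macrophages that take up lipoproteins, excess cholesterol is converted in part to oxysterols, which bind the liver X receptors LXRα (encoded by Nr1h3) and LXRβ (Nr1h2). These act as heterodimers with RXRα (Rxra) and switch on genes for cholesterol export, among them Abca1, Abcg1 and Apoe. PPARγ (Pparg), another partner of RXRα, responds to fatty acid derivatives, and SREBP2 (Srebf2) switches on cholesterol synthesis and uptake when sterols are scarce.

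After duplicate removal the libraries held 26748289 tags (H3K4me3, Sun knockout), 29681491 (H3K4me3, wild type), 28586946 (H3K9me3, Sun knockout) and 27727997 (H3K9me3, wild type). With 1 library per mark and genotype there was no replicate check and no test between genotypes. Each interval is given at 95% (exact Poisson for a density, exact conditional binomial for a ratio) and reflects nothing but counting error. The macrophage label was checked on markers: 10 of 10 macrophage genes, such as Adgre1, Csf1r and Cd68, had an H3K4me3 peak in both genotypes, against 67.3% of all protein-coding genes. Of 5 adipocyte markers Plin1 alone had one, with 118 tags in the knockout and 160 in the wild type, and Adipoq, Lep, Cidec and Retn had no peak. Of 5 hepatocyte markers Apoa1 alone had one, with 39 and 68 tags. Both genotypes had peaks at 2 of 5 T cell markers (295 and 393 tags in sum) and 2 of 5 B cell markers (524 and 736 tags), and Cd3e and Ms4a1 had none. Of 5 neutrophil markers S100a8 had 21 tags in the knockout alone, Mpo 34 in the wild type alone, and Ly6g none. The 5 mesothelial markers held 339 tags in the knockout and 739 in the wild type. Both genotypes had peaks at Wt1 (207 tags in the knockout and 321 in the wild type) and Lrrn4 (132 and 284 tags). Only the wild-type library had a peak at Upk3b (101 tags) and at Krt19 (33 tags), while Msln had none. The part of these other cell types in the values below was not tested. A peak at a marker shows modified histones there and does not measure RNA.

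Promoter windows of 300 bp, from 250 bp before to 50 bp after an annotated start site, were matched by symbol for 7 of the 9 genes. They are RefSeq sequences of GRCm38.p6, the assembly of mm10. Those of Abca1, Nr1h2, Pparg, Apoe and Srebf2 are printed 5′ to 3′ on the gene's strand, because start sites at or within the H3K4me3 peaks of the next paragraphs lie in them and because they differ in CpG number and in the motifs they hold. Capitals mark letters found on either strand: AGGTCA (nuclear receptor site), CACCCCA (core of the sterol response element), GGGCGG (GC box), CACGTG (E-box), CCGGAAG (core of ETS factor sites) and TATAAA.
Abca1, chr4:53159846-53160145, minus strand: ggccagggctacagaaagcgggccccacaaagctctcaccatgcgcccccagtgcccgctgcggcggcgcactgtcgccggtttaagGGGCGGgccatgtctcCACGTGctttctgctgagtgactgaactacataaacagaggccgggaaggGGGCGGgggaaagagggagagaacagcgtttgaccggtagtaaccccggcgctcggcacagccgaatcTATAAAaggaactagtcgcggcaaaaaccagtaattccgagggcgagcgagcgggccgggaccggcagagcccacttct
Nr1h2, chr7:44553916-44554215, minus strand: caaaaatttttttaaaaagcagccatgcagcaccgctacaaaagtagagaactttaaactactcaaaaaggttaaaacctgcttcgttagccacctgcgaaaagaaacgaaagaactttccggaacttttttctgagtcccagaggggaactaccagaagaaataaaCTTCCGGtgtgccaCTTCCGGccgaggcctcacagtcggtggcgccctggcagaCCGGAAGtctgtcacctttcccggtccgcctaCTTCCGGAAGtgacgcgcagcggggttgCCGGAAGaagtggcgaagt
Pparg, first start, chr6:115360894-115361193, plus strand: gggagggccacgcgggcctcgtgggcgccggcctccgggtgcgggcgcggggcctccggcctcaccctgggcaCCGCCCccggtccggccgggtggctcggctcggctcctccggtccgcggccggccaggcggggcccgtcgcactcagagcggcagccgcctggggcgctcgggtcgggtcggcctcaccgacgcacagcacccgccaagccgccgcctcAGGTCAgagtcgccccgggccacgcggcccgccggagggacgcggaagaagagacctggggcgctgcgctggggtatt
Apoe, most upstream of its 3 tabulated starts, chr7:19699139-19699438, minus strand: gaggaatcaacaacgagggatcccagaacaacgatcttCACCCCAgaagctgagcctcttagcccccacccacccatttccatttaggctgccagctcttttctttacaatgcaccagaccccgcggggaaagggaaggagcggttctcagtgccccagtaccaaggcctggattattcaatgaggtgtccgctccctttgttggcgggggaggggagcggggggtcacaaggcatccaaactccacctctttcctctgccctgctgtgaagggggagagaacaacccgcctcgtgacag
Srebf2, chr15:82147019-82147318, plus strand: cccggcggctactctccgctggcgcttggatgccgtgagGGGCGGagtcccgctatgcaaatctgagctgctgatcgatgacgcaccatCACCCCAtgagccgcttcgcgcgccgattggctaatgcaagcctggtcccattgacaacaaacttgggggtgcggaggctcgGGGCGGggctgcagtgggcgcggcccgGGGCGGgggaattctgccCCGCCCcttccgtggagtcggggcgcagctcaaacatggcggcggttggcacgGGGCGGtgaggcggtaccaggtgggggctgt

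The Pparg window held 44 CpG dinucleotides, the Srebf2 window 30, the Abca1 window 26 and the Nr1h2 window 19, against a median of 7 over 32851 mouse promoter windows. The Apoe window held 10, and the Nr1h3 window on chromosome 2 (91195067 to 91195366) held 8. The window of the first Rxra start had the most CpG of the 13 windows of these genes, 55, more than 99.7% of all windows. In the Srebf2 window there were 5 GC boxes, a number reached by 2.71% of windows, and 1 CACCCCA, held by 7.62% of windows. The Nr1h2 window held 6 matches to CCGGAAG on either strand, of which a pair overlap, a number reached by 3 of the 32851 windows. Abca1 had 2 GC boxes (at least 2 in 19.5% of windows), 1 E-box (7.15%) and 1 TATAAA (13.6%). The first Pparg window held 1 AGGTCA (16.3%) and 1 GC box (35.7%), and the Apoe window 1 CACCCCA. The repeat of AGGTCA with 4 bases between, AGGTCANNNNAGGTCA, the ideal form of the LXR response element, is in 5 of all windows and in none of these. Looser forms were not searched, and the letters printed say nothing about binding.

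All 9 genes carried H3K4me3 in both genotypes, as did 67.3% of protein-coding genes (68.7% had it in the knockout and 70.2% in the wild type). None was marked in the knockout alone (1.43% of genes) or in the wild type alone (2.93%). Of genes at least 50000 bp long, as 5 of the 9 are, 90.7% had a peak in either genotype, against 71.7% of all genes. Each had a peak over its start, or for Nr1h2 within 42 bp of it, and no pair of such peaks differed in tag density by as much as 2-fold. At 7 of the 9 genes the start-site peak was narrower in the knockout, and at 5 of them (Lpl, Apoe, Srebf2, Abcg1 and Rxra) its width was between 0.629 and 0.764 of the wild-type width. Of all H3K4me3 peak pairs, 18.6% had a width ratio below that of Rxra, 0.764. This cut comes from the genes themselves, so the 5 genes and the 18.6% are not a test of an excess. The share below it among pairs at least 2000 bp wide in the wild type was not counted. Densities below are tags per kb of peak per 1000000 filtered tags, a scale that allows genes to be compared. Ratios are log2 ratios of tag density, knockout over wild type, centred on the median of all 17114 H3K4me3 peak pairs, so 0 means the same as the median pair. Without centring, the median pair was at -0.19, and 78.5% of pairs lay below 0.

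**Figure D1:**
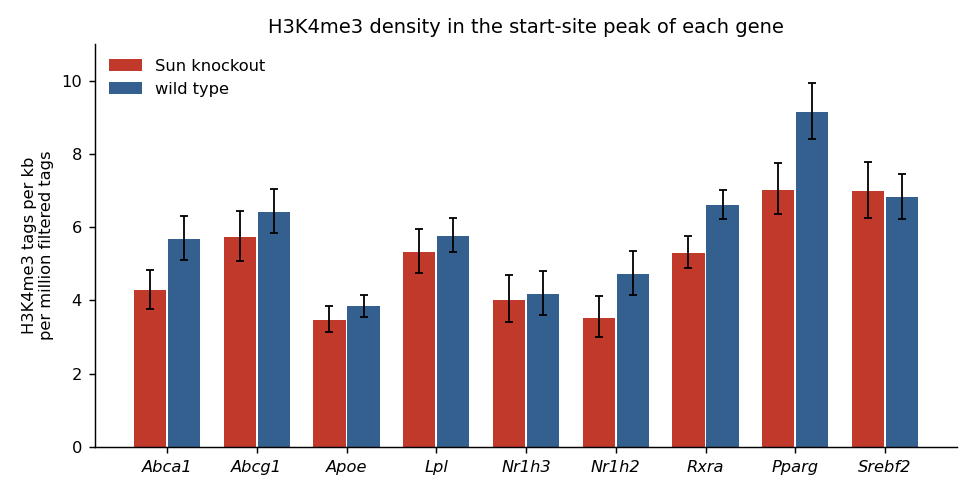
H3K4me3 tag density (tags per kb per 1000000 filtered tags) in the start-site peak of each gene, Sun knockout in red and wild type in blue. Bars are single libraries and error bars are exact Poisson 95% intervals; Pparg and Srebf2 have the densest peaks in both libraries and Apoe the least dense.

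Among the exporters, Abca1, which encodes a transporter that loads cholesterol onto apolipoprotein A-I, had a start-site peak of 261 tags over 2283 bp in the knockout and 360 tags over 2135 bp in the wild type (chromosome 4, 53157861 to 53159995 in the wild type). Its density was 4.27 (interval 3.77 to 4.83) in the knockout and 5.68 (5.11 to 6.30) in the wild type. These intervals do not overlap, but against the median pair the ratio was -0.22 (-0.46 to 0.01), an interval that includes 0. Abcg1, whose product exports cholesterol to high-density lipoprotein, had 276 tags over 1804 bp in the knockout and 451 tags over 2365 bp in the wild type (chromosome 17, 31057112 to 31059476). The densities of 5.72 and 6.42 had overlapping intervals, and the ratio was 0.02 (-0.20 to 0.24). By tags per peak, not divided by width and centred on the median pair of that measure, it was -0.23 (-0.45 to -0.01). Both Abcg1 peaks began within 6 bp of each other, while the knockout peak ended 567 bp earlier. The tables used gave no start site or strand for Abcg1 and Lpl, so their peaks are placed by the lower-coordinate end of the gene, which both peaks cover.

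Apoe encodes a lipoprotein that macrophages secrete and that carries cholesterol away from them. A single broad peak covered most of the gene and its 3 annotated start sites, with 376 tags over 4042 bp in the knockout and 623 tags over 5472 bp in the wild type (chromosome 7, 19695783 to 19701254). The wild-type peak was wider than 99.5% of peaks in its library and the knockout peak wider than 98.7%. Their density was the lowest of the 9 genes, 3.48 (3.14 to 3.85) in the knockout and 3.84 (3.54 to 4.15) in the wild type. The ratio was 0.05 (-0.14 to 0.23), and by tags per peak -0.25 (-0.44 to -0.06). The knockout peak was 1430 bp narrower, and 1360 bp of this lay at its upstream end, beyond the 3 tabulated starts. This stretch lay inside Apoe as annotated, whose upstream end is at 19701310, while the knockout peak ended at 19699894. The wild-type peak also reached the 1000 bp window of Tomm40, a gene of the mitochondrial import pore on that side.

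Lpl encodes lipoprotein lipase, which releases fatty acids from triglyceride-rich lipoproteins. Its peak held 317 tags over 2227 bp in the knockout and 606 tags over 3542 bp in the wild type (chromosome 8, 68879905 to 68883446). The densities had overlapping intervals, 5.32 (4.75 to 5.94) in the knockout and 5.76 (5.31 to 6.24) in the wild type, and the ratio was 0.07 (-0.13 to 0.27). By tags per peak the Lpl ratio was -0.46 (-0.66 to -0.26), the lowest of the 9 genes and of the other sign. The width ratio of 0.629 was the lowest of the 9 genes, and 5.98% of all pairs had a lower one. Most of the difference lay at the higher-coordinate edge, inside the gene, where the knockout peak ended 1122 bp earlier.

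The LXR genes had the start-site peaks with the fewest tags. For Nr1h3 the peak over both annotated start sites held 151 tags over 1407 bp in the knockout and 194 tags over 1570 bp in the wild type (chromosome 2, 91194014 to 91195583), with a ratio of 0.14 (-0.18 to 0.45). The Nr1h3 window held 2 further peaks in each genotype, which it shares with its neighbours. On the side of Madd, a gene of a Rab regulator, there were 307 tags in the knockout and 501 in the wild type, with a ratio of 0.20 (-0.01 to 0.41). On the side of Acp2, a lysosomal phosphatase gene, there were 150 tags over 1700 bp in the knockout and 308 tags over 2778 bp in the wild type. Here the width ratio was 0.612 and the density ratio 0.01 (-0.28 to 0.30). This pair also lay at the upstream end of Nr1h3 as annotated, 91202829 on the minus strand. The wild-type peak (91201861 to 91204638) covered that end, and the knockout peak began just beyond it, at 91202921. For Nr1h2 the peak held 164 tags over 1738 bp in the knockout and 245 tags over 1748 bp in the wild type (chromosome 7, 44552176 to 44553923). The annotated start lay 10 bp beyond the knockout peak and 42 bp beyond the wild-type peak. The density of the Nr1h2 peak was 3.53 (3.01 to 4.11) in the knockout and 4.72 (4.15 to 5.35) in the wild type, and the ratio was -0.23 (-0.53 to 0.06). A second pair in this window, on the side of the DNA polymerase gene Pold1, had 130 tags in the knockout and 193 in the wild type and was at -0.36 (-0.69 to -0.03).

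Rxra had the peak with the most tags of the 9 genes: 579 tags over 4082 bp in the knockout and 1048 tags over 5340 bp in the wild type (chromosome 2, 27675853 to 27681192). The wild-type peak held more tags than 99.7% of peaks in its library. Its density was 5.30 (4.88 to 5.75) in the knockout and 6.61 (6.22 to 7.02) in the wild type, and the ratio was -0.13 (-0.28 to 0.02), or -0.38 (-0.53 to -0.23) by tags per peak. The knockout peak began 26 bp later and ended 1232 bp earlier, so the difference in width lay almost wholly downstream of the start.

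Pparg had the densest peak of the 9 genes in both libraries. It held 400 tags over 2129 bp in the knockout and 558 tags over 2057 bp in the wild type (chromosome 6, 115360726 to 115362782), and covered 2 of 3 annotated start sites, leaving out the one at 115422066. The density was 7.02 (6.35 to 7.75) in the knockout and 9.14 (8.40 to 9.93) in the wild type, higher than in 96.1% of knockout and 98.7% of wild-type peaks. The ratio of -0.19 had an interval just below 0 (-0.38 to -0.0027), and by tags per peak, which is centred on another median, it was -0.0018 (-0.19 to 0.19).

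Srebf2 was the only one of the 9 genes whose start-site density was higher in the knockout library, 6.97 (6.25 to 7.77) against 6.81 (6.22 to 7.45) in the wild type, with overlapping intervals. The peak held 333 tags over 1785 bp in the knockout and 484 tags over 2394 bp in the wild type (chromosome 15, 82147203 to 82149596). Relative to the median pair the ratio was 0.22 (0.02 to 0.43), the highest of the 9, and by tags per peak it was -0.06 (-0.27 to 0.14). The 2 peaks began 1 bp apart, and the knockout peak ended 608 bp earlier.

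**Figure D2:**
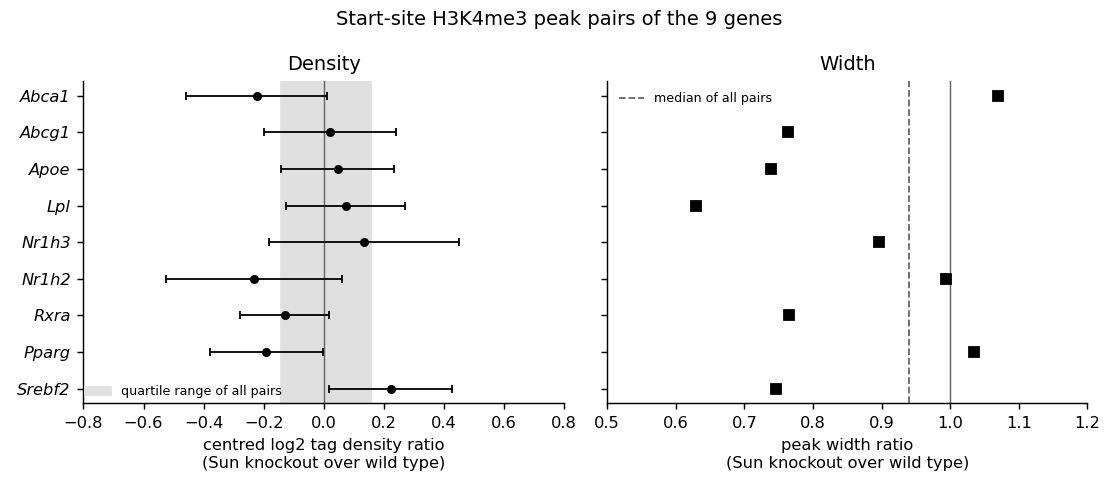
Left, centred log2 H3K4me3 tag density ratio of each start-site pair, Sun knockout over wild type, with exact conditional binomial 95% intervals; the grey band spans the quartiles of all 17114 pairs, -0.14 to 0.16. Right, ratio of peak widths in the same pairs, with the median of all pairs (0.939) dashed. Between 0.629 and 0.764 lie 5 genes, and 18.6% of all pairs lie below 0.764, a cut taken from the ratio of Rxra.

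In order of density in the knockout, the start-site peaks ran Pparg, Srebf2, Abcg1, Lpl, Rxra, Abca1, Nr1h3, Nr1h2, Apoe. In the wild type the order was Pparg, Srebf2, Rxra, Abcg1, Lpl, Abca1, Nr1h2, Nr1h3, Apoe. Neighbours in these orders had overlapping counting intervals, except Rxra and Abca1 in the knockout and Pparg and Srebf2 in the wild type. Over the 9 start-site pairs the median ratio was 0.02, with 5 above and 4 below 0, beside 0 over all pairs by construction. At least 2-fold denser in the knockout were 0 of the 9, against 0.0409% of all pairs, and at least 2-fold less dense 0, against 0.0117%. The density intervals of Pparg and Srebf2 excluded 0, on opposite sides. By tags per peak those of Lpl, Rxra, Apoe and Abcg1 did, all below 0. By that measure 7 of the 9 values lay below 0, against 50% of all pairs by construction. Of pairs at least 2000 bp wide in the wild type, 52.1% lay below 0. The share of all pairs whose interval excludes 0 was not counted for either measure. Scaled to filtered tags without centring, 8 of the 9 pairs lay below 0, near the 78.5% of all pairs.

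The median width ratio of the 9 pairs was 0.764, beside 0.939 over all pairs and 0.928 over the 4658 pairs at least 2000 bp wide in the wild type. Narrower in the knockout were 7 of the 9 start-site pairs, against 67.5% of all pairs, so the direction was the common one. The exceptions were Abca1, whose knockout peak was 148 bp wider, and Pparg, 72 bp wider than in the wild type. For Nr1h2 the widths differed by 10 bp. With 9 genes and 1 library per genotype, whether the width ratios of these genes differ from those of other genes was not tested. The knockout library also had fewer filtered tags, 26748289 against 29681491, and a smaller share of them in peaks, 14.0% against 17.8%. The part of depth in the widths was not tested.

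**Figure D3:**
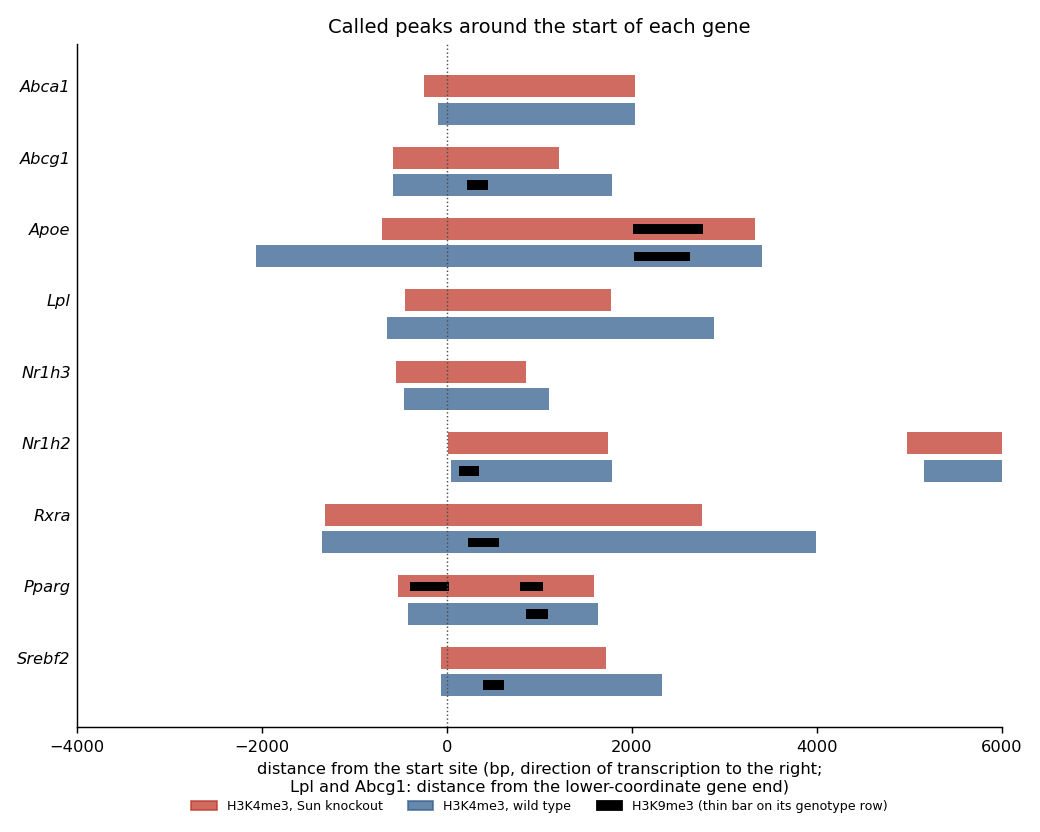
Called peaks from 4000 bp before to 6000 bp after the start of each gene, with the Sun knockout row above the wild-type row; wide bars are H3K4me3 and thin black bars are H3K9me3. Distances run in the direction of transcription from the most upstream printed start site, and for Lpl and Abcg1 from the lower-coordinate gene end; knockout bars of Lpl, Abcg1, Rxra and Srebf2 end earlier on the right, and that of Apoe, on the minus strand, on the left (upstream).

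Inside the genes, away from the starts, the wild-type library had 8 H3K4me3 peaks without an overlapping knockout peak, and the knockout library had 0 of 18 without a wild-type one. These 8 were 30.8% of the 26 wild-type peaks, against 22.7% of all wild-type peaks in windows of protein-coding genes; for the knockout the background was 14.1%. They lay in 4 genes, with 70 and 41 tags in Abca1, 63 and 57 tags in Abcg1, 94 and 153 tags in Rxra, and 33 and 18 tags in Pparg. All 8 had scores between 52.4 and 90.8, near the caller's limit of 50 on this scale of -10 times log10 of the p-value. A region under the limit in the knockout can still hold tags, so these peaks do not measure a change.

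Internal peaks found in both libraries held between 20 and 130 tags in the knockout and between 22 and 176 in the wild type. Abca1 had one about 50 kb downstream of its start, with 46 tags in the knockout and 36 in the wild type. Rxra had one with 60 and 81 tags, upstream of its second annotated start at 27709292, and one with 130 and 176 tags, with ratios of 0.40 (-0.11 to 0.90) and 0.13 (-0.21 to 0.47). Srebf2 had one with 33 and 30 tags, and Pparg had 2, with 37 and 32 tags and with 20 and 22 tags. Both of these Rxra intervals include 0, and the other pairs held fewer than the 50 tags set for a ratio.

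H3K9me3 peaks were small, and few tags of this mark lay in peaks. The share was 1.62% of filtered tags in the knockout and 1.69% in the wild type, against 14.0% and 17.8% for H3K4me3. How far the counts below depend on this low share was not tested. In the windows of the 9 genes, 4 of 8 peaks in the knockout and 7 of 11 in the wild type had no partner in the other genotype. In windows of all protein-coding genes these shares were 62.5% and 60.5%. A peak lay in the window of 4 of the 9 genes in the knockout (Abca1, Apoe, Pparg and Srebf2), against 28.1% of protein-coding genes, and of 7 of the 9 in the wild type, against 25.6%. With a score of at least 100 the counts were 2 in the knockout, 3 in the wild type and 1 in both. The same 4 genes were marked in both, against 16.9%, Abcg1, Nr1h2 and Rxra in the wild type alone, against 8.74%, none in the knockout alone, against 11.2%, and Lpl and Nr1h3 in neither. Long genes hold more peaks: 70.8% of genes of at least 50000 bp had an H3K9me3 peak in either genotype, against 36.8% of all genes.

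Apoe had the strongest H3K9me3 peak of the group and the only pair that met the tag minimum of 50. It held 64 tags over 757 bp in the knockout (19696422 to 19697178) and 48 tags over 611 bp in the wild type, with a ratio of 0.08 (-0.48 to 0.65). It lay toward the downstream end of the gene, under the broad H3K4me3 peak in both libraries. Pparg had 34 tags in a peak called in the knockout only (115360739 to 115361167), which covered the start site at 115361144 and lay within the H3K4me3 peak. A second Pparg peak, of 18 tags in each library, lay near the start at 115362349. In Abca1, far downstream of the start, a peak of 20 tags in the knockout overlapped one of 19 in the wild type, and a neighbouring peak of 38 tags was called in the wild type alone. Srebf2 had 27 and 23 tags at 1 shared place inside the gene and 26 tags at another in the knockout alone.

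At 6 of the 9 genes in the wild type, and at 2 in the knockout, an H3K9me3 peak overlapped an H3K4me3 peak. Among all genes with H3K4me3 these shares were 26.8% in the knockout and 20.3% in the wild type, so over all genes the order was the other way round. Counted by peak, 3 of 8 knockout and 6 of 11 wild-type H3K9me3 peaks at these genes overlapped H3K4me3, against 50.8% and 39.7% in all gene windows. The wild-type peaks close to starts were those of Rxra (29 tags, 27677425 to 27677768), Nr1h2 (17 tags), Abcg1 (14 tags) and Srebf2 (14 tags), none with a knockout counterpart, and the Pparg peak of 18 tags described above. The Apoe peak lay 1233 bp from the nearest tabulated start. A peak of 14 tags exceeded 23.9% of wild-type H3K9me3 peaks and one of 29 tags exceeded 85.0%, so low tag numbers are the rule for this mark here. The caller used no control library, per the file headers. How far peaks of this size at promoters depend on the lack of a control was not tested. With a score of at least 100 for both marks the counts were 2 in the knockout and 2 in the wild type.

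Srebf2 also hosts the gene of miR-33, a microRNA known to repress Abca1 and Abcg1 in the mouse. Its 5p arm is printed because it joins a pair of the 9 genes, with the seed (bases 2 to 8) in capitals. It lies on chromosome 15 at 82198127 to 82198147, and no peak of either mark was called within the Srebf2 window downstream of 82182287 in either genotype.
mmu-miR-33-5p: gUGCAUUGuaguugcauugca

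The other genes of these pathways were set beside the 9 as 5 lists, chosen with earlier results of these data known. Of their 120 genes 119 were in the gene table, and 112 had H3K4me3 in both genotypes, 2 in the knockout alone and 3 in the wild type alone. Over all protein-coding genes these shares were 67.3%, 1.43% and 2.93%. The 107 genes with a pair had a median ratio of -0.03, with 47 above and 60 below 0, beside -0.03 over 13181 protein-coding genes with a pair. None of these 107 genes was at least 2-fold denser or less dense in its pair. This measure divides by width and leaves out peaks without a pair. Sums of tags over the window differed more at some genes, in both directions. Lrp1 held 360 tags in the knockout and 1733 in the wild type, and Fdps 883 and 306. Their pairs held 154 and 363 tags (Lrp1) and 670 and 691 tags (Fdps). Hsd17b7, without a pair, held 56 and 169 tags. Such sums depend on which peaks were called and reached the window.

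Among LXR target and reverse cholesterol transport genes, 16 of 18 were marked in both genotypes, and 16 genes with a pair had a median of -0.02 with 7 above 0. Mylip, whose product targets the LDL receptor for degradation, was at -0.34 (-0.55 to -0.13) with 325 tags in the knockout and 477 in the wild type. Apoc2, the cofactor gene of lipoprotein lipase, was at 0.44 (0.10 to 0.79) with 154 and 129 tags, and Abcg4, a sterol transporter gene, at 0.23 (-0.04 to 0.50). Lcat, which encodes the cholesterol-esterifying enzyme of plasma, counted as marked in the wild type alone, but a knockout peak of 308 tags lay 1187 bp from the gene beside the wild-type peak of 360 tags at 993 bp, and the ratio of the pair was -0.18 (-0.40 to 0.04).

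Nuclear receptor partners and coregulators had a median of -0.03 over 20 pairs, with 8 above 0. Ncoa2, a coactivator gene, was at 0.19 (0.05 to 0.33), the nuclear receptor gene Nr4a1 at 0.13 (-0.07 to 0.34), and Gps2, a corepressor subunit gene, at -0.29 (-0.50 to -0.09). Rxrg, the gene of another RXR, was marked only in the wild-type library, by 29 tags.

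All 29 genes of SREBP processing and cholesterol synthesis were marked in both genotypes, against 67.3% of protein-coding genes. The 26 genes with a pair had a median of -0.09, the lowest of the 5 lists, with 10 above and 16 below 0. Nsdhl, a sterol dehydrogenase gene, was at -0.65 (-1.21 to -0.11) with 45 and 80 tags, and Mbtps2, whose protease releases SREBP, at -0.59 (-0.997 to -0.19) with 86 and 140 tags. Fdft1, the squalene synthase gene, was at 0.45 (0.08 to 0.83) with 113 and 132 tags, and the sterol carrier gene Stard4 at 0.34 (0.02 to 0.65) with 130 and 229 tags in a narrower knockout peak.

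Lipoprotein uptake and intracellular cholesterol genes had a median of -0.02 over 18 pairs, with 8 above 0. Cd36, a scavenger receptor gene, had the highest ratio of the 5 lists, 0.59, with a wide interval (-0.04 to 1.24) from 59 tags in the knockout and 34 in the wild type. Summed over all peaks of the Cd36 window the order was reversed, with 59 tags in the knockout and 128 in the wild type. Nceh1, a cholesteryl ester hydrolase gene, was at -0.42 (-0.71 to -0.13). Of the scavenger receptor genes, Msr1 was marked by 36 tags in the knockout only and Olr1 by 22 tags in the wild type only.

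Fatty acid genes had a median of 0.02 over 27 pairs, with 14 above 0. The fatty acid transporter gene Slc27a4 was at 0.34 (0.08 to 0.59), the lipase maturation gene Lmf1 at 0.33 (0.02 to 0.63) and the triglyceride synthesis gene Dgat1 at -0.31 (-0.58 to -0.05). Pnpla2, the adipose triglyceride lipase gene, was marked in the knockout only, by 552 tags over 5632 bp with a score of 208.8. The nearest wild-type peak, of 1167 tags over 7821 bp with a score of 73.7, began 2475 bp beyond the gene. A region under the caller's limit in the wild type can still hold tags, so this call does not measure a change.

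**Figure D4:**
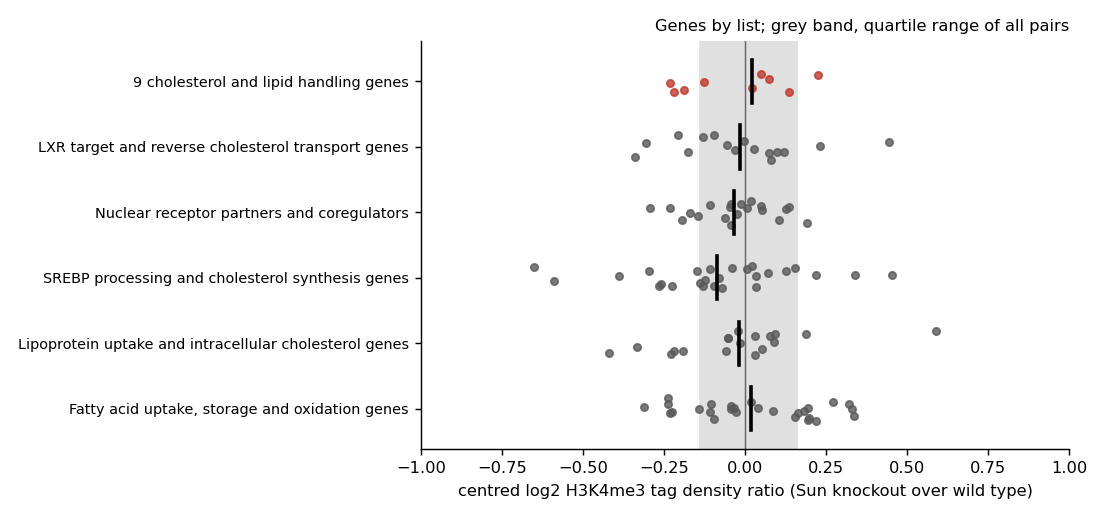
Centred log2 H3K4me3 tag density ratio, Sun knockout over wild type, of the 9 genes (red, start-site pairs) and of the genes with a pair in the 5 lists (grey); black bars are medians, and points are spread vertically for clarity. Medians lie between -0.09 and 0.02, inside the grey band of the quartiles of all pairs.

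For each of the 9 genes the protein-coding gene with the most similar tag sums was looked up, as the smallest Euclidean distance over the 4 libraries in log2(tags per 1000000 filtered tags + 0.1). The nearest to Nr1h2 was Plekhf2 (distance 0.0049, H3K4me3 sums of 293 tags in the knockout and 438 in the wild type, against 294 and 438 for Nr1h2). For Nr1h3 it was Abi3 (0.02), for Lpl Hyal1 (0.03), for Abcg1 Hectd3 (0.11), for Srebf2 Wdr47 (0.13), for Pparg Vps54 (0.18), for Apoe Ap4s1 (0.19), for Abca1 Slc24a3 (0.22) and for Rxra Bahcc1 (0.32). The likeness is in summed tags of the windows over 4 libraries and in nothing else.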

How the data were processed

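ChIP-seq for H3K4me3 and H3K9me3 was analysed in 4 libraries, grouped by their labels. The submitters' processing notes name CASAVA 1.4, Bowtie 0.12.8, MACS 1.4.2, DiffBind and the build mm10, without roles. Each deposited file lists the peaks that MACS 1.4.2 called in 1 library without a control, at a p-value limit of 1.00e-05, with at most 1 tag per position and a local background over 10000 bp, per the file headers. The authors' deposited values per peak are the tag count, a score (-10 times log10 of the p-value), a linear fold ratio over the local background, and other measures in bp (width and summit). The caller's fragment estimates were, in the knockout and the wild type, 149 and 142 bp (H3K4me3) and 71 and 66 bp (H3K9me3), per the file headers.

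Genes and promoter sequences came from RefSeq tables of GRCm38.p6. A pair was a knockout and a wild-type peak that shared 50% or more of both widths, touched no further peak, and reached 50 tags in either library. A gene's pair was the one with most tags in its window; for Nr1h3 the start-site pair is reported as its start-site value, a choice made after the peaks were seen. Intervals are Poisson or conditional binomial. The 9 genes and the 5 lists were chosen with earlier results of these data known, and the motifs after the promoters had been read. From each list the text names up to 4 genes: at most 2 marked in 1 genotype alone, then those with the highest and lowest ratios. Of the lists, Cetp was not in the gene table. The work was done in Python 3.11.15 with pandas 2.3.3 and scipy 1.17.1 on numpy 2.4.6, with figures by matplotlib 3.10.9. The ratios were tested on simulated tag counts, with knockout peaks given the same coordinates as the wild-type peaks. Pairing of peaks that differ in position or width was therefore not tested. Alternatives were other windows, score limits, scalings, tag minimums and pairings, sums over merged regions, and tags per peak.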

Additional observations from a re-analysis of the deposited data

How the results depend on the processing

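No paired analysis was possible because each genotype had a single library for a mark, without replicate numbers, and for the same reason no replicate could be left out. All 9 genes kept H3K4me3 in both genotypes with windows of 0 and 2500 bp and with a score of at least 100. The median ratio of the 9 pairs with most tags, 0.02, was -0.23 with tags per peak and -0.22 with tags summed over merged regions, both without division by width and centred on their own medians. For the 9 start-site pairs, which differ at Nr1h3, the median with tags per peak was -0.10. For the pairs with most tags the median was -0.17 scaled to filtered tags, -0.07 scaled to library totals and -0.15 with 80% reciprocal overlap. With minimums of 20 and 100 tags it was -0.01 and 0.04, so its sign depended on the setting. Scaled to filtered tags, which moves every ratio down by the same amount, the lists were at -0.21 (LXR targets), -0.22 (nuclear receptor partners), -0.28 (SREBP), -0.21 (uptake) and -0.17 (fatty acid). For single genes 20 of 59 alternative ratios lay outside the counting interval of the main value, and no ratio reached 2-fold (largest size 0.46). Alternatives chosen after seeing the data were a limit on unpartnered and doubly marked peaks, the start-site pair, and 80% overlap for widths. With 80% overlap 5 genes had a pair and the median width ratio was 0.994, a setting that keeps pairs of similar width by construction. For Rxra and Nr1h3 it took another pair of peaks (the internal one of 130 and 176 tags and the start-site one), so the Rxra value of 0.17 belongs to a different peak. With a score of at least 100 the wild-type peaks without a partner numbered 0. At that score H3K9me3 marked 2 genes in the knockout, 3 in the wild type and 1 in both, and lay on H3K4me3 at 2 genes in the wild type.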
